A study of Mus musculus with 20 samples.

Results

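The cytosolic ribosomal protein genes are the genes for the proteins of the small (Rps) and large (Rpl) subunits of the ribosomes in the cytoplasm. They were taken from the count table by symbol: every name made of Rps or Rpl and a number, with an optional closing letter a, l, x or y and an optional further digit, together with Rplp0, Rplp1, Rplp2 and Rpsa. S6 kinase genes and names ending in -ps were left out. The rule found 82 of the 29915 genes in the table, 31 for the small and 51 for the large subunit. All 31 small-subunit genes and 47 of the large-subunit genes passed the low-count filter, so that 78 of 13894 genes tested were members.

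Livers came from male mice on regular chow under a 12/12 h light and dark cycle, with a hepatocyte-specific knock-in of the Prox1 form K556R, in which the lysine that takes the small protein SUMO is replaced, or with wild-type Prox1. Prox1 is a homeodomain transcription factor of hepatocytes. Mice were 8 weeks old when Cre switched the knock-in on and gave their livers after a further 11 weeks, refed or fasted, at Zeitgeber time (ZT) 15 to 17. The 4 groups, K556R refed, wild type refed, K556R fasted and wild type fasted, held 5 libraries each. Libraries carry a number and a batch (1_b1, for example), and values by library are given in that order, batch 1 first within a group. Batch 2 gave 3 of the 5 K556R refed libraries and 1 library in each other group. The sample titles name the genotypes Cre and Ctrl, so that Cre alone and K556R cannot be told apart as the source of a difference. How libraries relate to animals is not in the labels, and the p-values therefore cover the spread of these libraries, which may be technical.

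Total counts per library lay between 33746054 and 50647297. Prox1, the targeted gene, had 75.5 ± 12.1 CPM (counts scaled to a common library total) in K556R refed livers and 110.1 ± 15.7 CPM in wild-type refed livers, 104.5 ± 15.7 CPM in K556R fasted livers and 184.6 ± 38.5 CPM in wild-type fasted livers (SD, n = 5 each). Its change over both feeding states was −0.72 on the log2 scale (edgeR's quasi-likelihood test with Benjamini-Hochberg adjustment, adjusted p = 0.00563), and a count per gene does not read the altered codon. The feeding labels fitted Pck1, the gluconeogenic enzyme that falls on refeeding, with 597 to 2393 CPM in refed and 4871 to 8016 CPM in fasted livers. Albumin, the hepatocyte product, had 75150 to 112100 CPM over the 20 libraries.

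Ribosomal proteins are built into each ribosome in fixed proportions, and their genes are housekeeping genes, transcribed in every cell. Their mRNAs start with a run of pyrimidines, the 5′ terminal oligopyrimidine (TOP) motif, through which the kinase mTORC1, active after a meal, mainly sets how strongly they are translated. In the liver, refeeding after a fast is a textbook setting for this translational switch, which a measurement of mRNA level does not see. Transcription of these genes in mammals is tied to factors such as GABP, an ETS-family protein, and YY1.

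RefSeq windows of GRCm38.p6 around the annotated start, from 250 bases before it to 50 bases after it, matched 62 of the 82 members. A run of at least 6 pyrimidines within 5 bases of the start was found in 29 of these 62 windows (46.8%), against 5664 of all 27025 windows. A run of at least 8 pyrimidines within 50 bases of the start was found in 49 windows (79.0%), against 35.7% of all windows. The ETS core CCGGAA, on either strand, was in 32 member windows (51.6%), against 15.2% of all windows, and the YY1 core AAGATGG, on either strand, in 9 (14.5%), against 6.5%. The letters TATAAA, on the strand of the gene alone, were in 6 windows (9.7%), against 8.9% of all windows. A match is a description of the letters in a window.

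The following 8 windows are shown because they set pyrimidine runs near the start beside the paralogs and partners that the results turn on. Each is 60 bases, 45 before the RefSeq start and 15 from it, read 5′ to 3′ on the strand of the gene, and capitals mark the longest pyrimidine run of at least 6 bases that lies within 5 bases of the start.
Rps6 (chr4:86857353-86857412, minus strand): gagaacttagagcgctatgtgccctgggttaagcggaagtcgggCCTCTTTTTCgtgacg
Rpl4 (chr9:64173342-64173401, plus strand): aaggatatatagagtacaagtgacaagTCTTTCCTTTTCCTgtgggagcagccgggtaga
Rplp2 (chr7:141447606-141447665, plus strand): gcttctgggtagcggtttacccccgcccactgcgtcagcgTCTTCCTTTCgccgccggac
Rps27 (chr3:90213634-90213693, minus strand): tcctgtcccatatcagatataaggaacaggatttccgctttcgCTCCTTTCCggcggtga
Rps27l (chr9:66946041-66946100, plus strand): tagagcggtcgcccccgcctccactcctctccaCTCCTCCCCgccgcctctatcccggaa
Rpl22l1 (chr3:28805463-28805522, plus strand): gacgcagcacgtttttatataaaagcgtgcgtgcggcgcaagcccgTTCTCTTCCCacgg
Rpl22 (chr4:152325681-152325740, plus strand): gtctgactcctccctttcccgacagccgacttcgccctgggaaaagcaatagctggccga
Rpl7l1 (chr17:46782642-46782701, minus strand): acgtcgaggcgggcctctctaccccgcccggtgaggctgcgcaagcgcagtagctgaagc
The runs of Rps6, Rplp2 and Rpl22l1 were each 10 bases long, that of Rpl4 14 bases, and those of Rps27 and Rps27l 9 bases. The runs of Rps6, Rplp2 and Rps27 crossed the RefSeq start, and that of Rpl22l1 began at base 2 of the transcript. Those of Rpl4 and Rps27l ended before the RefSeq start. In a second annotation, GENCODE M21, the gene Rpl4 starts at chr9:64173375, within its run. There Rps27l starts at chr9:66946086, after its run, and Rps6 at chr4:86857412, before its run. Which runs are TOP motifs thus depends on the start taken, and was not tested. Rpl22 and Rpl7l1 had no such run within 5 bases of the RefSeq start.

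Levels between genes were compared only per kilobase of transcript, as mean CPM per kb over the 20 libraries. The median member stood at 202.6 CPM per kb, with 138.2 and 265.3 as quartiles. Rpl10, a large-subunit protein that joins late in assembly, was highest with 574.6 CPM per kb, followed by Rps24 with 403.9 and Rps18 with 396.6 CPM per kb, both small-subunit proteins. The lowest of those tested were Rpl34 with 4.32, Rpl31 with 4.31 and Rps2 with 1.105 CPM per kb. They lay far under the next, Rps20, with 29.6 CPM per kb. Rps20 had 109.9 CPM over a transcript of 3706 bases, the longest among the members tested, so its place depends on the transcript taken.

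The proteins encoded by Rpl34, Rpl31 and Rps2 are constant parts of the ribosome, so these counts do not rank the proteins. Ribosomal protein genes have many processed pseudogenes, and how the authors' counting treated reads that fit several places is not given in the sources used here. Of the 50-base stretches in the Rps2 transcript, 79.0% were found in transcripts of other genes of GENCODE M21, 75.1% in Rpl31 and 50.6% in Rpl34. The row Rpl34-ps1, a pseudogene outside the rule, held 20747 counts over the 20 libraries against 1758 for Rpl34. Among other pseudogene rows, Rpl13a-ps1 held 5066 counts and Rps19-ps3 held 645 counts over the 20 libraries. Over all 82 members the median share of such stretches was 54.5%, and in 49 members it was at least 50%. Over the 78 tested members the Spearman correlation of level per kb with the share was 0.28 for 50-base stretches and 0.13 for 100-base stretches. Both are descriptions over genes that share libraries and sequence. Rpl10, the highest, shared 92.1% of its 50-base stretches. Whether reads that fit several places lowered the counts of Rps2, Rpl31 or Rpl34 was not tested.

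Among the 4 members that did not pass the filter, Rpl10l had 0 counts in all 20 libraries, which allows up to 3 counts in each. Rpl39l had 2 counts in 1 library, and Rpl3l had 56 counts in all and 0 to 7 per library. Rpl10l and Rpl39l are known as testis paralogs and Rpl3l as the muscle and heart paralog of Rpl3.

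Together the 82 genes took 1.22 ± 0.101% of all counts in K556R refed livers, 1.25 ± 0.0736% in wild-type refed livers, 1.11 ± 0.0758% in K556R fasted livers and 1.12 ± 0.0421% in wild-type fasted livers (SD, n = 5 each). In wild-type livers the refed libraries, at 1.18 to 1.36%, lay above the fasted ones, at 1.05 to 1.16%. In K556R livers the ranges overlapped, at 1.1 to 1.37% in refed and 1.05 to 1.24% in fasted livers. A share depends on what else is counted. With TMM scaling, which sets the libraries against a common set of genes and gave factors of 1.004 to 1.13 in refed and 0.889 to 1.014 in fasted libraries, the members differed less between feeding states than their share did, as the fitted changes show.

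**Figure D1:**
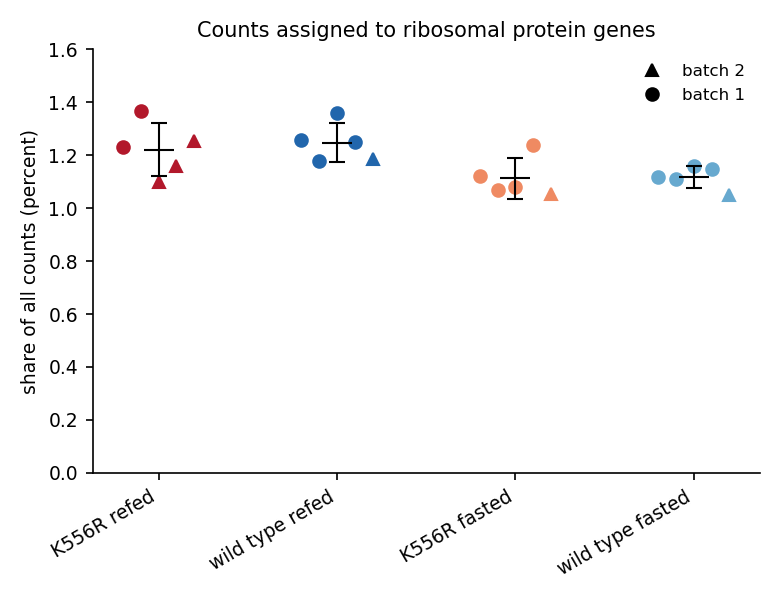
Share of all counts assigned to the 82 cytosolic ribosomal protein genes (y axis, percent, from 0) in each of the 20 libraries by group, with batch as the symbol and the mean and SD of 5 libraries as bars. Refed means are 1.22% (K556R) and 1.25% (wild type), and fasted means 1.11% (K556R) and 1.12% (wild type).

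Refeeding left nearly all of these mRNAs near their fasted level while much of the liver transcriptome moved. In wild-type livers 5 of 78 members passed the test (6.41%), 4 higher and 1 lower in refed livers, where 45.1% of all genes tested passed. In K556R livers 5 of 78 passed (6.41%), 3 higher and 2 lower, against 39.9% of all genes tested. The tests were edgeR's quasi-likelihood test with Benjamini-Hochberg adjustment over all 13894 genes, with group and batch as terms and 0.05 as the threshold. Comparisons between feeding states and between genotypes use the same libraries and are not independent of each other.

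Among genes with a mean level above 5 on the log2 CPM scale, 5 of 74 members passed in wild-type livers, against 55.3% of all 3709 genes at that level, and 3 of 74 in K556R livers, against 47.8%. The 95% interval of the log2 change lay within ±0.5 for 97.3% of these members in each genotype, against 62.8% of genes at that level in wild-type and 64.6% in K556R livers. The median log2 change was 0.06 in wild-type livers (−0.01 over all genes tested), with 59 of 78 members above 0. It was 0.05 in K556R livers (0.01 over all genes), with 62 of 78 above 0. Members share libraries and vary together, so these counts are descriptions. The mean deviation of members had an SD of 0.1 between libraries after group and batch were removed. Leaving out 1 library gave medians of 0.025 to 0.11 in wild-type and 0.02 to 0.113 in K556R livers. The small subunit had medians of 0.05 in each genotype and the large subunit 0.06 in wild-type and 0.05 in K556R livers, and all of the calls were in the large subunit.

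How many members passed depended on the scaling and on single libraries. Upper-quartile scaling raised the median change of all genes to 0.06 in each genotype and gave 25 calls in wild-type livers, all higher, and 10 in K556R livers, 9 higher and 1 lower. In wild-type livers the count was 19 without wild type fasted 4_b1 and 10 without K556R refed 2_b1. It was 3 without wild type refed 1_b1, 3_b1 or 4_b1, without wild type fasted 3_b1 or 1_b2, and without K556R refed 1_b2. In K556R livers it was 11 without K556R refed 1_b1, 8 without K556R fasted 4_b1, and 3 without K556R fasted 2_b1 or 1_b2. Within batches, the median member differed between refed and fasted livers by 0.16 in batch 2 and 0.02 in batch 1 of wild-type livers, and by 0.05 in batch 2 and 0.04 in batch 1 of K556R livers.

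**Figure D2:**
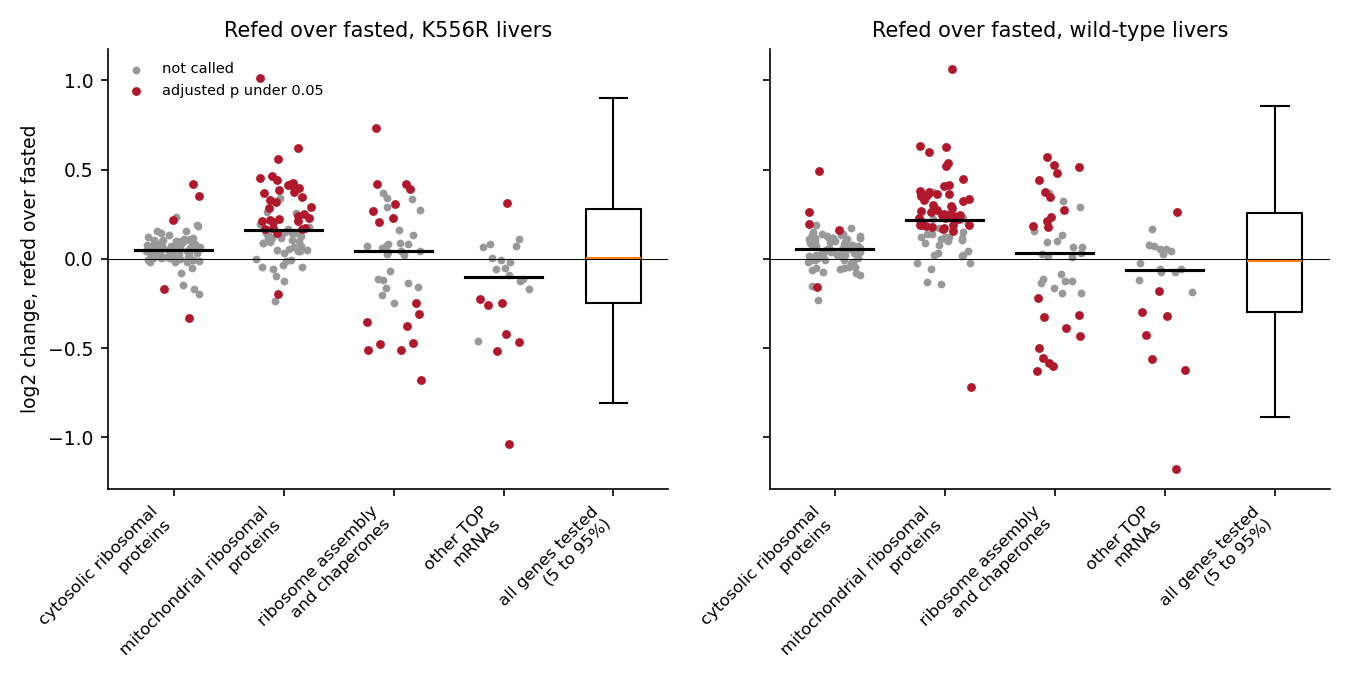
Log2 change, refed over fasted, of each gene (points, red where the adjusted p is under 0.05) in K556R livers (left) and wild-type livers (right) for the cytosolic ribosomal protein genes and 3 related lists, with the list median as a line, beside a box of the quartiles and a 5 to 95% range of all 13894 genes tested. Points of the cytosolic ribosomal proteins lie in a narrow band near 0, with 5 of 78 red in each genotype.

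Rpl7l1 rose most. It encodes a paralog of the large-subunit protein Rpl7, and its yeast relative Rlp7 works in the assembly of the large subunit rather than in the finished ribosome; the mouse gene lies at chr17:46773907-46782672 on the minus strand (GENCODE M21, GRCm38). Rpl7l1 had 76.7, 81.1, 80.7, 78.6 and 77.3 CPM in K556R refed livers, against 58.9, 55.8, 58.2, 59.7 and 63.7 CPM in K556R fasted livers. In wild-type livers it had 82.2, 81.8, 90.3, 84.8 and 78.2 CPM refed, against 58.1, 56.6, 61.7, 64.5 and 55.1 CPM fasted. Every refed library lay above every fasted one. Refed and fasted libraries without overlap were common, in 26.9% of all genes tested in K556R and 34.6% in wild-type livers. Among members they were found in 3 higher and 1 lower in K556R livers and in 2 higher and 0 lower in wild-type livers. The log2 change was 0.42 (SE 0.06, adjusted p = 8.42e-06) in K556R livers and 0.49 (SE 0.05, adjusted p = 4.78e-07) in wild-type livers by edgeR. It passed in all 12 other settings and in all 20 fits that left out a library, in each genotype. Within batches the K556R difference was 0.31 in batch 2 and 0.44 in batch 1, and the wild-type difference 0.50 in batch 2 and 0.49 in batch 1.

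Rpl7 itself did not pass, with log2 changes of −0.02 in each genotype. The log2 ratio of Rpl7l1 to Rpl7 within a library does not depend on scaling. It averaged −1.93 ± 0.09 in K556R refed and −2.40 ± 0.09 in K556R fasted livers (SD, n = 5 each). In wild-type livers it averaged −1.90 ± 0.09 refed and −2.42 ± 0.07 fasted (SD, n = 5 each). The exact two-sided permutation test within batches gave p = 0.0167 for K556R and 0.0143 for wild-type livers, in each case the smallest p the design allows, and both were 0.0668 after adjustment over 12 ratio tests.

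Rpl3, whose protein reaches towards the peptidyl transferase centre, lies at chr15:80077791-80091868 on the minus strand. Rpl3 had 252.3, 273.4, 257.9, 261.2 and 279.2 CPM in K556R refed livers, against 229.2, 215.5, 249.6, 240.7 and 212.3 CPM in K556R fasted livers. It had 280.1, 256.1, 303.5, 267.8 and 265.8 CPM in wild-type refed livers, against 216.3, 232.6, 213.2, 247.0 and 233.4 CPM in wild-type fasted livers. The refed and fasted libraries did not overlap in either genotype, as in 26.9% of all genes tested in K556R and 34.6% in wild-type livers. The log2 change was 0.22 (SE 0.07, adjusted p = 0.0133) in K556R livers and 0.27 (SE 0.06, adjusted p = 0.00188) in wild-type livers by edgeR. The K556R call was lost without K556R fasted 1_b2, at an adjusted p of 0.0729, and in batch 1 alone, at 0.201. Of its 50-base stretches 85.6% were found in other genes.

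Rpl22 fell. Its protein is an RNA-binding part of the large subunit that ribosomes can do without, and in mice loss of Rpl22 is known to raise its paralog Rpl22l1; Rpl22 lies at chr4:152325742-152334071 on the plus strand. Rpl22 had 77.6, 78.4, 73.7, 74.2 and 73.2 CPM in K556R refed livers, against 86.5, 92.5, 89.7, 84.4 and 81.2 CPM in K556R fasted livers. It had 83.0, 77.9, 87.4, 79.5 and 78.9 CPM in wild-type refed livers, against 87.2, 87.6, 89.99, 103.6 and 84.9 CPM in wild-type fasted livers. The groups did not overlap in K556R livers, as in 26.9% of all genes tested, and overlapped in 1 wild-type refed library, 3_b1. The log2 change was −0.17 (SE 0.06, adjusted p = 0.0219) in K556R livers and −0.16 (SE 0.05, adjusted p = 0.0204) in wild-type livers by edgeR.

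The Rpl22 calls held in 7 of 12 other settings in K556R and 8 of 12 in wild-type livers. With upper-quartile scaling the changes were −0.11 (adjusted p = 0.0925) in K556R livers and −0.08 (adjusted p = 0.181) in wild-type livers. Both were also lost without a filter (adjusted p = 0.0844 in K556R and 0.0981 in wild-type livers), in batch 1 alone (0.129 in K556R and 0.0655 in wild-type livers) and with the replicate block (0.13 in K556R and 0.0504 in wild-type livers). The K556R call was lost without both K556R 1_b1 libraries (adjusted p = 0.0507) and without K556R refed 2_b1 (adjusted p = 0.0687) or K556R fasted 2_b1 (0.0502). The wild-type call was lost without wild type refed 2_b1 (0.0609), wild type refed 4_b1 (0.0548) or wild type fasted 4_b1 (0.151). Within batches the difference was −0.14 in batch 2 and −0.18 in batch 1 of K556R livers, and −0.11 in batch 2 and −0.17 in batch 1 of wild-type livers.

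Rpl22l1, the paralog, lies at chr3:28805436-28807424 on the plus strand. Rpl22l1 had 22.6, 22.7, 21.5, 21.3 and 18.97 CPM in K556R refed livers, against 30.7, 26.1, 33.0, 29.0 and 22.6 CPM in K556R fasted livers. It had 27.4, 24.6, 28.8, 23.4 and 26.8 CPM in wild-type refed livers, against 24.9, 32.1, 31.4, 38.0 and 27.8 CPM in wild-type fasted livers. The fasted livers were the more spread out in each genotype, and the refed and fasted ranges overlapped in each. The log2 change was −0.33 (SE 0.10, adjusted p = 0.0145) in K556R livers and −0.23 (SE 0.10, adjusted p = 0.0605) in wild-type livers by edgeR, so that the K556R change passed and the wild-type change did not. The K556R call was lost in batch 1 alone (adjusted p = 0.0501), with the replicate block (0.115) and without both K556R 1_b1 libraries (0.0542). The wild-type change passed without wild type refed 1_b2 (−0.29, adjusted p = 0.0314) or wild type fasted 1_b1 (−0.31, adjusted p = 0.0099). The difference between these changes, −0.10 (SE 0.14), had an adjusted p of 1. The pair thus had the same sign of change, and its log2 ratio differed between refed and fasted livers by −0.13 in K556R (exact permutation p = 0.267) and −0.07 in wild-type livers (exact permutation p = 0.371).

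**Figure D3:**
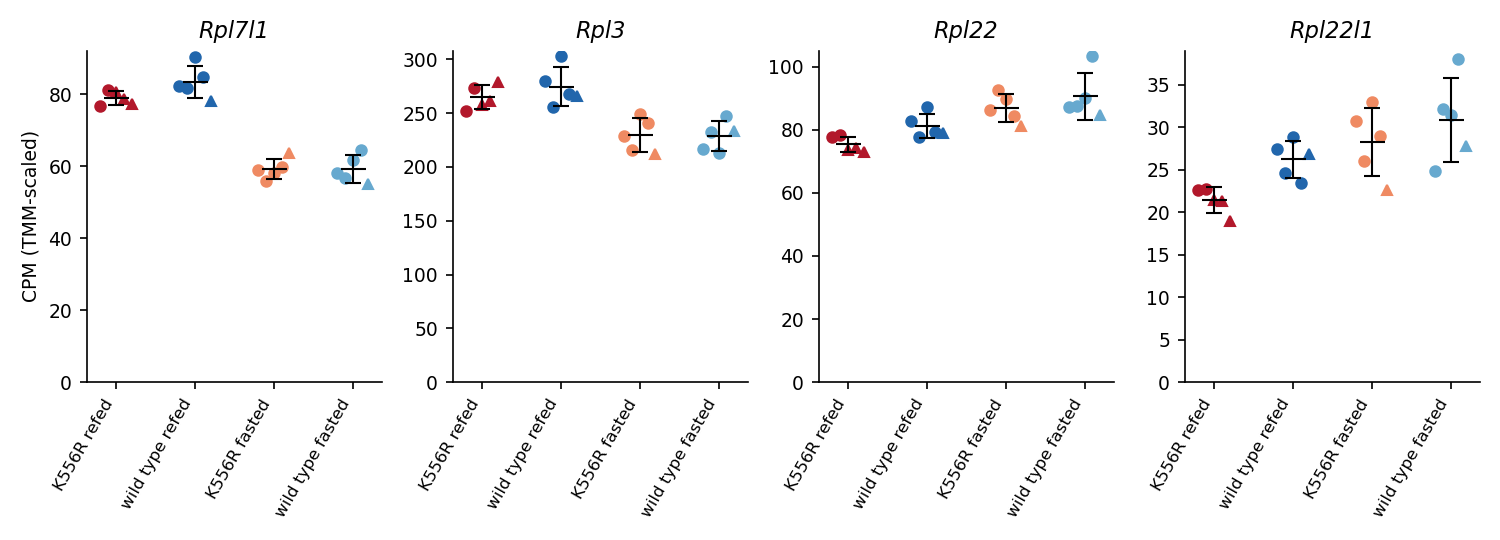
CPM with TMM scaling (y axes from 0) of Rpl7l1, Rpl3, Rpl22 and Rpl22l1 in each library by group, circles for batch 1 and triangles for batch 2, with the mean and SD of 5 libraries as bars. Refed livers stand above fasted livers in Rpl7l1 and Rpl3, while Rpl22 and Rpl22l1 are lowest in K556R refed livers.

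The remaining calls were close to the threshold. Rpl31, a protein at the mouth of the exit tunnel, had 2.34, 2.22, 2.42, 2.005 and 2.43 CPM in K556R refed livers, against 2.005, 1.99, 1.91, 1.89 and 1.53 CPM in K556R fasted livers. The lowest refed and the highest fasted library were thus equal to this precision. Its log2 change was 0.35 (SE 0.14, adjusted p = 0.0448) by edgeR. The call was lost in 10 of the 20 fits that left out a library, and the gene had 1778 counts in all.

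Rpl39, a small protein that lines the exit tunnel, had 93.5, 83.1, 100.9, 86.0 and 93.2 CPM in wild-type refed livers, against 71.3, 84.6, 81.4, 95.4 and 66.8 CPM in wild-type fasted livers. The ranges overlapped, the log2 change was 0.20 (SE 0.08, adjusted p = 0.0427), and the within-batch differences were 0.48 in batch 2 and 0.13 in batch 1. The call was lost in 7 of 20 fits that left out a library. Rpl11, which with Rpl5 and the 5S RNA can hold the p53 inhibitor Mdm2, changed by 0.16 (SE 0.06, adjusted p = 0.0435) in wild-type livers by edgeR. It had 199.8, 195.7, 214.1, 197.3 and 184.0 CPM refed, against 170.5, 178.8, 180.6, 199.9 and 156.4 CPM fasted, and lost its call in 12 of 20 such fits.

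No other member of special role passed on refeeding. Rps6, the substrate of S6 kinase and the usual reporter of mTORC1 activity, changed by 0.02 (95% interval −0.13 to 0.17) in K556R livers and 0.02 (−0.12 to 0.17) in wild-type livers. Rpl5, the partner of Rpl11, changed by −0.02 in K556R and −0.05 in wild-type livers. Rps27a, which is made as a fusion with ubiquitin, changed by 0.07 in K556R and 0.06 in wild-type livers. Rpsa, also known as a laminin receptor, changed by 0.19 (adjusted p = 0.113) in K556R and 0.14 (adjusted p = 0.214) in wild-type livers by edgeR. Rps27l, a paralog of Rps27 that p53 is known to induce, changed by 0.05 (adjusted p = 0.583) in K556R and 0.13 (adjusted p = 0.097) in wild-type livers.

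The stalk proteins Rplp0, Rplp1 and Rplp2 form the arm of the large subunit that recruits elongation factors. On refeeding they changed by −0.01, 0.05 and −0.01 in K556R livers and by −0.08, 0.00 and −0.01 in wild-type livers, and none passed. Their intervals differed in width: that of Rplp0 was −0.28 to 0.13 in wild-type livers, that of Rplp1 −0.42 to 0.41 and that of Rplp2 −0.38 to 0.36. The data thus bound a change of Rplp1 and Rplp2 less tightly than one of Rplp0.

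Lists of genes around the ribosome are given as counts, to be read against the shares of all genes called on refeeding in either direction, 39.9% in K556R and 45.1% in wild-type livers; no difference between a list and other genes was tested. Of 74 genes for mitochondrial ribosomal proteins tested, 32 rose and 1 fell in K556R livers, and 44 rose and 1 fell in wild-type livers, with median log2 changes of 0.16 in K556R and 0.22 in wild-type livers. Mrps27 changed by 1.01 in K556R and 1.06 in wild-type livers, and Mrpl22 by 0.56 in K556R and 0.64 in wild-type livers, all with edgeR adjusted p of at most 1.33e-06. Of all genes tested, 19.6% were called higher in K556R and 20.9% in wild-type livers, and 20.3% were called lower in K556R and 24.2% in wild-type livers.

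Of 43 genes for ribosome assembly and for chaperones of ribosomal proteins, 8 rose and 9 fell in K556R livers and 12 rose and 10 fell in wild-type livers. Ubtf, which activates the transcription of ribosomal RNA, changed by −0.51 in K556R and −0.58 in wild-type livers. Zfp622, which helps the large subunit mature, changed by −0.51 in K556R and −0.63 in wild-type livers. Dkc1, the pseudouridine synthase of ribosomal RNA, changed by 0.73 in K556R livers, and Polr1c, a subunit of RNA polymerases I and III, by −0.60 in wild-type livers.

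Of the 22 other genes with known TOP mRNAs, 1 rose and 7 fell in each genotype, with median log2 changes of −0.10 in K556R and −0.06 in wild-type livers. Eif4b, an initiation factor, changed by −1.04 in K556R and −1.18 in wild-type livers. Pabpc1, the poly(A)-binding protein, changed by −0.46 in K556R and −0.56 in wild-type livers. Eef2, the translocation factor, changed by −0.52 in K556R and −0.62 in wild-type livers.

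Of 20 genes of the mTORC1 pathway and of TOP translation control, 3 rose and 5 fell in K556R livers, and 3 rose and 11 fell in wild-type livers. Sesn2, an inhibitor of mTORC1 that senses leucine, changed by −1.65 in K556R and −1.62 in wild-type livers. Eif4ebp2, a repressor of cap-dependent initiation, changed by −0.38 in K556R and −0.54 in wild-type livers, and the kinase gene Mtor by −0.41 in K556R and −0.37 in wild-type livers. Of 10 transcription factors linked to ribosomal protein genes, 1 rose and 3 fell in each genotype, among them Yy1 at −0.66 in K556R and −0.64 in wild-type livers, and Gabpa, the ETS subunit of GABP, at −0.42 in K556R and −0.47 in wild-type livers. Of 10 genes of the p53 axis, 1 rose and 2 fell in K556R livers and 1 rose and 3 fell in wild-type livers, among them Cdkn1a, the cell cycle inhibitor, at −2.88 in K556R and −2.40 in wild-type livers.

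Markers of liver cell types were set beside the same shares of all genes tested, 39.9% called in K556R and 45.1% in wild-type livers. Of 8 sinusoidal endothelial markers, 3 fell in K556R livers and 4 in wild-type livers, and their summed level was 110 to 142.1 CPM in K556R refed, 113.2 to 124.1 in wild-type refed, 139.5 to 163.8 in K556R fasted and 97.4 to 171.3 in wild-type fasted livers. Of 11 proliferation markers tested, 4 rose and 2 fell in K556R livers and 1 fell in wild-type livers. In 9 hepatocyte markers 3 fell in K556R livers, and 1 rose and 3 fell in wild-type livers. Of the 10 macrophage markers, none passed in K556R livers and 1 fell in wild-type livers, and of 7 lymphocyte markers 1 rose in each genotype. Of 10 stellate cell markers 2 rose and 1 fell in K556R livers and none passed in wild-type livers. None of the 5 cholangiocyte or 4 erythroid markers tested passed in either genotype. The part of cell composition in the changes of ribosomal protein genes was not tested, and in bulk tissue fewer cells of a type and less RNA per cell cannot be told apart.

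Between genotypes no ribosomal protein gene passed the test, and the intervals were narrow for most. In refed livers 0 of 78 members passed in K556R against wild type, where 0% of all genes passed; 2 members had an unadjusted p under 0.05, and DESeq2 and limma called 0 members as well. In fasted livers 0 of 78 passed, where 0% of all genes passed; 0 members had an unadjusted p under 0.05, and DESeq2 and limma called 0. Over both feeding states 0 of 78 passed, against 0.0288% of all genes, with 2 members at an unadjusted p under 0.05 and 0 called by DESeq2 or limma. The interaction of genotype and feeding gave 0 of 78, against 0% of all genes. No member had an unadjusted p under 0.05, and DESeq2 and limma called 0. Of all 13894 genes tested by edgeR, 693 had an unadjusted p under 0.05 in refed and 1136 in fasted livers. Over both feeding states there were 1288 such genes, and 553 for the interaction.

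The median log2 change, K556R over wild type, was 0.00 in refed livers (0.02 over all genes) and 0.00 in fasted livers (−0.01 over all genes). Members lay evenly about 0, with 40 above and 38 below in refed and 43 above and 35 below in fasted livers. The 95% interval stayed within ±0.5 for 73 of 78 members (93.6%) in each feeding state, against 66.4% of all genes tested in refed and 66.6% in fasted livers. Among genes above 5 on the log2 CPM scale it did so for 95.9% of members in each state, against 91.7% of genes in refed and 91.2% in fasted livers, so that much of the narrowness went with the level. Within batches the median difference was 0.00 in batch 2 and −0.02 in batch 1 of refed livers, and 0.09 in batch 2 and −0.02 in batch 1 of fasted livers.

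**Figure D4:**
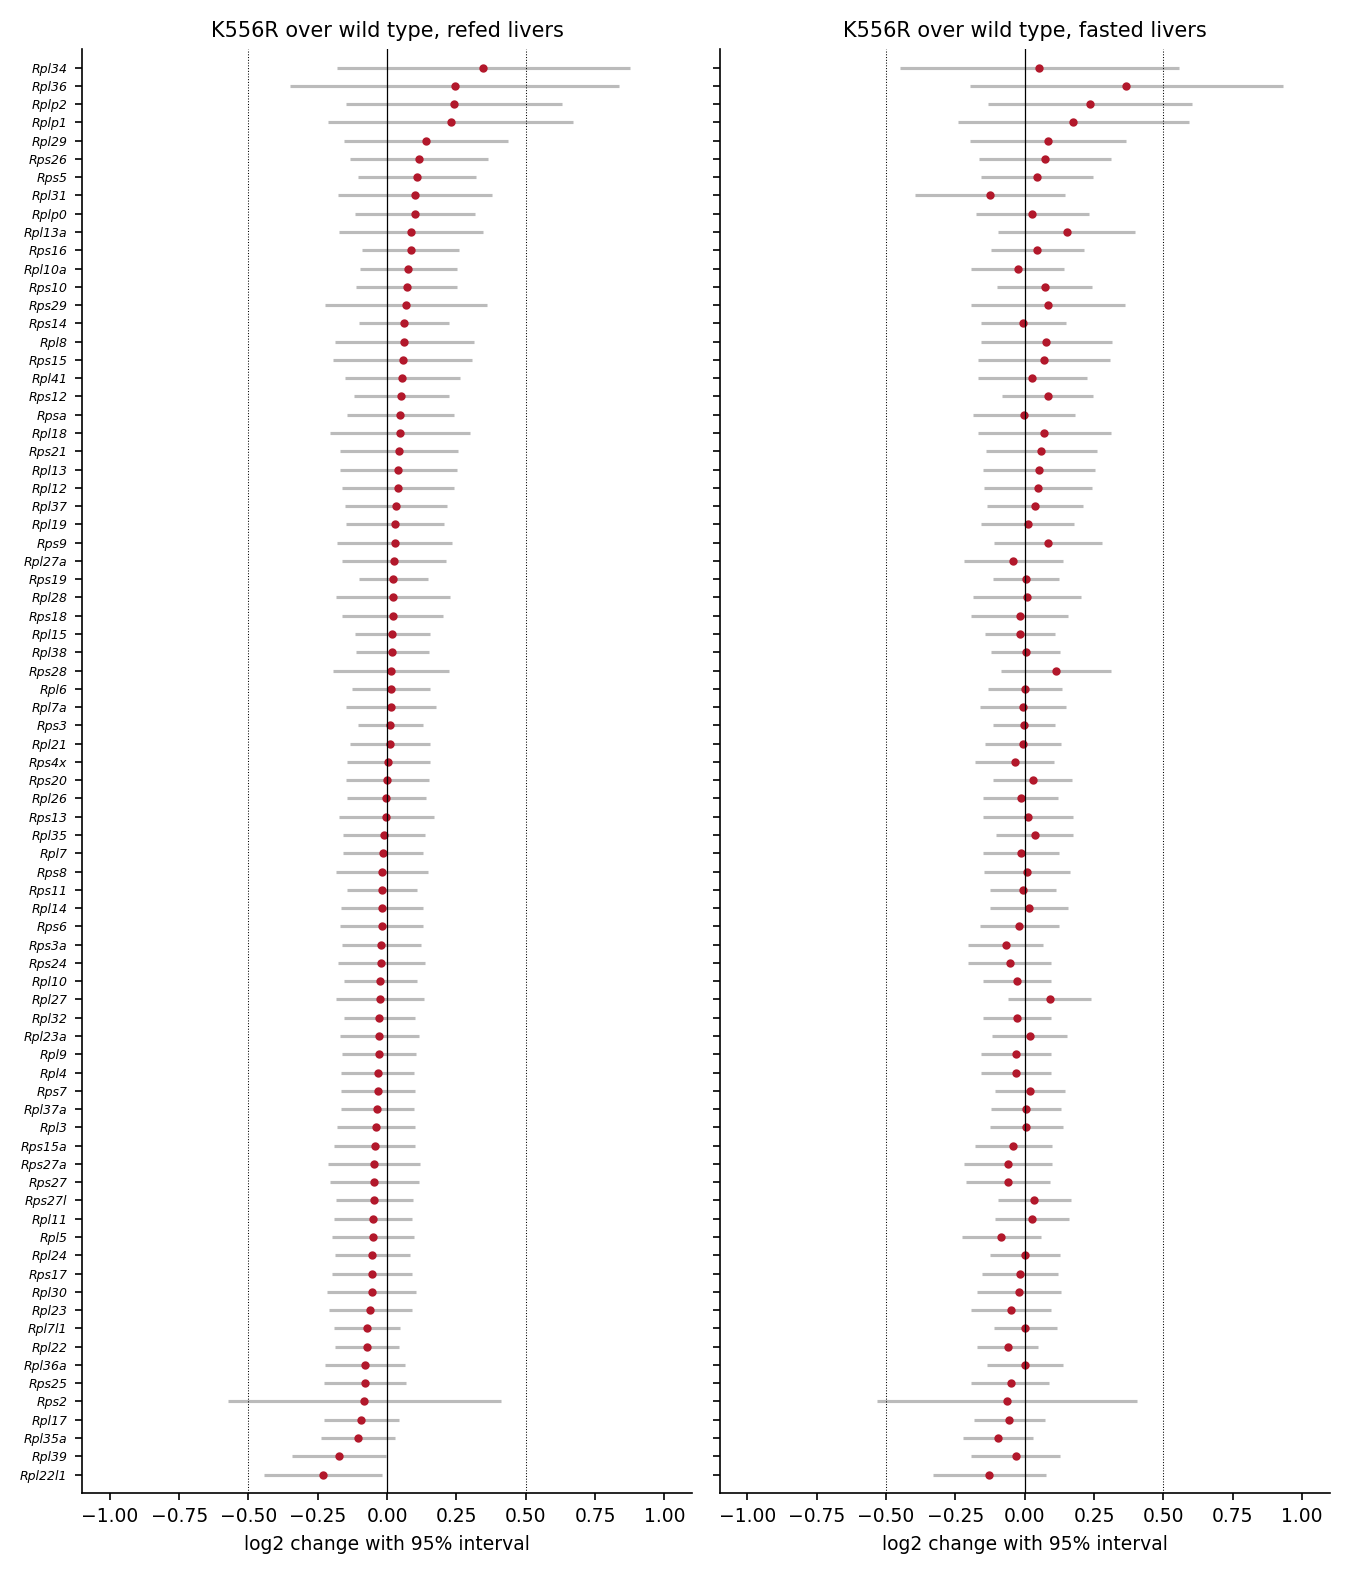
Log2 change, K556R over wild type, with its 95% interval for each of the 78 genes tested, in refed livers (left, the order of both panels) and fasted livers (right), with dotted lines at ±0.5. Most intervals include 0 and 73 of 78 lie within the dotted lines in each panel; Rpl34, Rpl36, Rplp1, Rplp2 and Rps2 have the widest.

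Within a feeding state, the lowest genotype p among members was that of Rpl22l1 in refed livers. Its 5 K556R refed libraries had 18.97 to 22.7 CPM and the 5 wild-type refed libraries 23.4 to 28.8 CPM, without overlap. Rpl22l1 was picked by its p, and the share of all genes without overlap between genotypes was not counted. The log2 change was −0.23 (SE 0.10, unadjusted p = 0.036, adjusted p = 0.965) by edgeR, so that it did not pass over all genes, and in fasted livers it was −0.13 (adjusted p = 0.823). The within-batch differences in refed livers were −0.38 in batch 2 and −0.20 in batch 1. The log2 ratio of Rpl22l1 to Rpl22 was −1.82 ± 0.07 in K556R refed and −1.64 ± 0.08 in wild-type refed livers (SD, n = 5 each). Its ranges were −1.95 to −1.78 in K556R and −1.76 to −1.56 in wild-type refed livers, in the same libraries. The exact two-sided permutation test within batches gave p = 0.0167, the smallest possible, or 0.0668 over 12 tests.

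Rpl39 in refed livers changed by −0.17 (edgeR unadjusted p = 0.0458, adjusted p = 0.965), with 85.3, 75.9, 76.3, 81.2 and 75.8 CPM in K556R livers, against 93.5, 83.1, 100.9, 86.0 and 93.2 CPM in wild-type livers. These ranges overlapped. Rpl35a, a large-subunit protein mutated in some cases of Diamond-Blackfan anaemia, changed by −0.11 in refed and −0.10 in fasted livers, with adjusted p of 0.965 in refed and 0.758 in fasted livers by edgeR. On the upper side, Rpl34 changed by 0.35 (SE 0.25) in refed livers, and Rpl36, a large-subunit protein, by 0.37 (SE 0.27) in fasted livers, both with intervals that include 0.

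Among the proteins of special role, Rps6 changed by −0.02 in each feeding state, Rpl11 by −0.05 in refed and 0.03 in fasted livers, and Rpl5 by −0.05 in refed and −0.08 in fasted livers. Rpsa changed by 0.05 in refed and 0.00 in fasted livers, and Rps27a by −0.05 in refed and −0.06 in fasted livers. Rpl7l1 changed by −0.07 in refed and 0.00 in fasted livers, and Rps27l by −0.05 in refed and 0.03 in fasted livers. The log2 ratio of Rps27l to Rps27 gave no adjusted p under 0.05 in any of the 4 comparisons; its lowest was 0.0858, for refed against fasted wild-type livers, where the difference was 0.19 (exact permutation p = 0.0286).

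None of the genes of the 6 related lists passed in K556R against wild type in either feeding state. The lists hold 74 mitochondrial ribosomal protein genes, 43 for ribosome assembly, 22 other TOP mRNAs, 20 of the mTORC1 pathway, 10 transcription factors and 10 of the p53 axis. None of the markers of hepatocytes, cholangiocytes, macrophages, lymphocytes, sinusoidal endothelium, stellate cells, erythroid cells or proliferation passed either. Of all 13894 genes tested, 7641 were above 0 in K556R over wild type in refed and 6588 in fasted livers. The 10 macrophage markers were all above 0 in refed livers, with a median of 0.34. In fasted livers all 10 were below 0, with a median of −0.29. Their summed level had medians of 135.5 CPM (101.6 to 211.7) in K556R refed and 113.3 CPM (87.4 to 143.6) in wild-type refed livers. In fasted livers it had medians of 128.3 CPM (106.4 to 141.7) in K556R and 109.9 CPM (60 to 328.6) in wild type. By this median the fasted sum was thus the higher in K556R. In refed livers 10 of 11 proliferation markers were above 0, with a median of 0.82. Of 7 lymphocyte markers 6 were above 0, with a median of 0.54. Summed over its whole list, proliferation had medians of 49.1 CPM (42.9 to 123.5) in K556R refed and 48.2 CPM (45.3 to 52.1) in wild-type refed livers. The lymphocyte sum had medians of 8.94 CPM (7.53 to 19.8) in K556R refed and 7.68 CPM (7.07 to 10.8) in wild-type refed livers. In fasted livers 6 of 11 proliferation markers were above 0, with a median of 0.04, and 5 of 7 lymphocyte markers, with a median of 0.44. For all of these markers, their part in the ribosomal protein values was not tested.

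The spread between libraries of a group was not the same for all members. After group and batch were removed, the SD of log2 CPM between libraries had a median of 0.11 over the 78 members, close to the 0.12 of the 3709 genes above 5 on the log2 CPM scale. It was highest in Rpl36 (0.44), Rpl34 (0.39), Rps2 (0.34), Rplp1 (0.34) and Rplp2 (0.30), and lowest in Rps3 (0.06) and Rpl22 (0.07). A single principal component held 68.8% of the variance of these residuals.

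Members of similar base composition tended to deviate together, with exceptions. The share of G and C in the transcripts of members ran from 39.0% in Rpl22l1 to 60.8% in Rpl36. Over the 78 genes the loading on the first component had a Spearman correlation of 0.71 with GC content, and the residual SD one of 0.47. Both are descriptions over genes that share the same libraries. The residuals were not scaled by gene, so that members of wide spread weigh more in the component. Rpl34, at 51.25% GC, had a loading of 0.29, and Rpl10, at 50.56%, one of 0.03. Rpl36 had 22.7, 63.6, 42.0, 42.6 and 49.2 CPM in K556R refed livers and 43.0, 42.0, 32.3, 30.5 and 38.2 CPM in wild-type refed livers. It had 32.0, 34.01, 46.0, 88.1 and 51.8 CPM in K556R fasted livers and 47.1, 41.9, 40.2, 31.3 and 35.03 CPM in wild-type fasted livers. The high values were in library 4_b1 of K556R fasted and 2_b1 of K556R refed livers, and the lowest was in 1_b1 of K556R refed livers.

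Rplp2 followed the same libraries, with 37.0, 77.6, 57.7, 60.8 and 65.2 CPM in K556R refed, 55.0, 52.4, 51.3, 44.5 and 49.1 CPM in wild-type refed, 44.9, 46.5, 57.7, 90.04 and 60.02 CPM in K556R fasted and 54.9, 52.2, 51.5, 47.6 and 48.1 CPM in wild-type fasted livers. In each library the slope of the deviation on GC content was then taken over members and over 7428 other genes. In K556R fasted 4_b1 a gain of 10 points in GC content went with a deviation of 0.31 on the log2 scale over members and 0.17 over other genes, and in K556R refed 2_b1 with 0.26 over each. In K556R refed 1_b1 the slopes were −0.23 over members and −0.15 over other genes, in wild type fasted 4_b1 −0.22 over members and −0.13 over other genes, and in K556R fasted 1_b1 −0.16 over members and −0.14 over other genes. In K556R refed 3_b2, a batch 2 library, they were 0.17 over members and 0.12 over other genes. The 6 libraries named belong to 3 of the 4 groups and to both batches, and all but wild type fasted 4_b1 are K556R libraries. On the first component of the residuals, K556R libraries lay between −2.325 and 2.341 and wild-type libraries between −0.668 and 0.356. The tests used 1 estimate of the spread of each gene for both genotypes. Where the slopes come from was not tested.

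**Figure D5:**
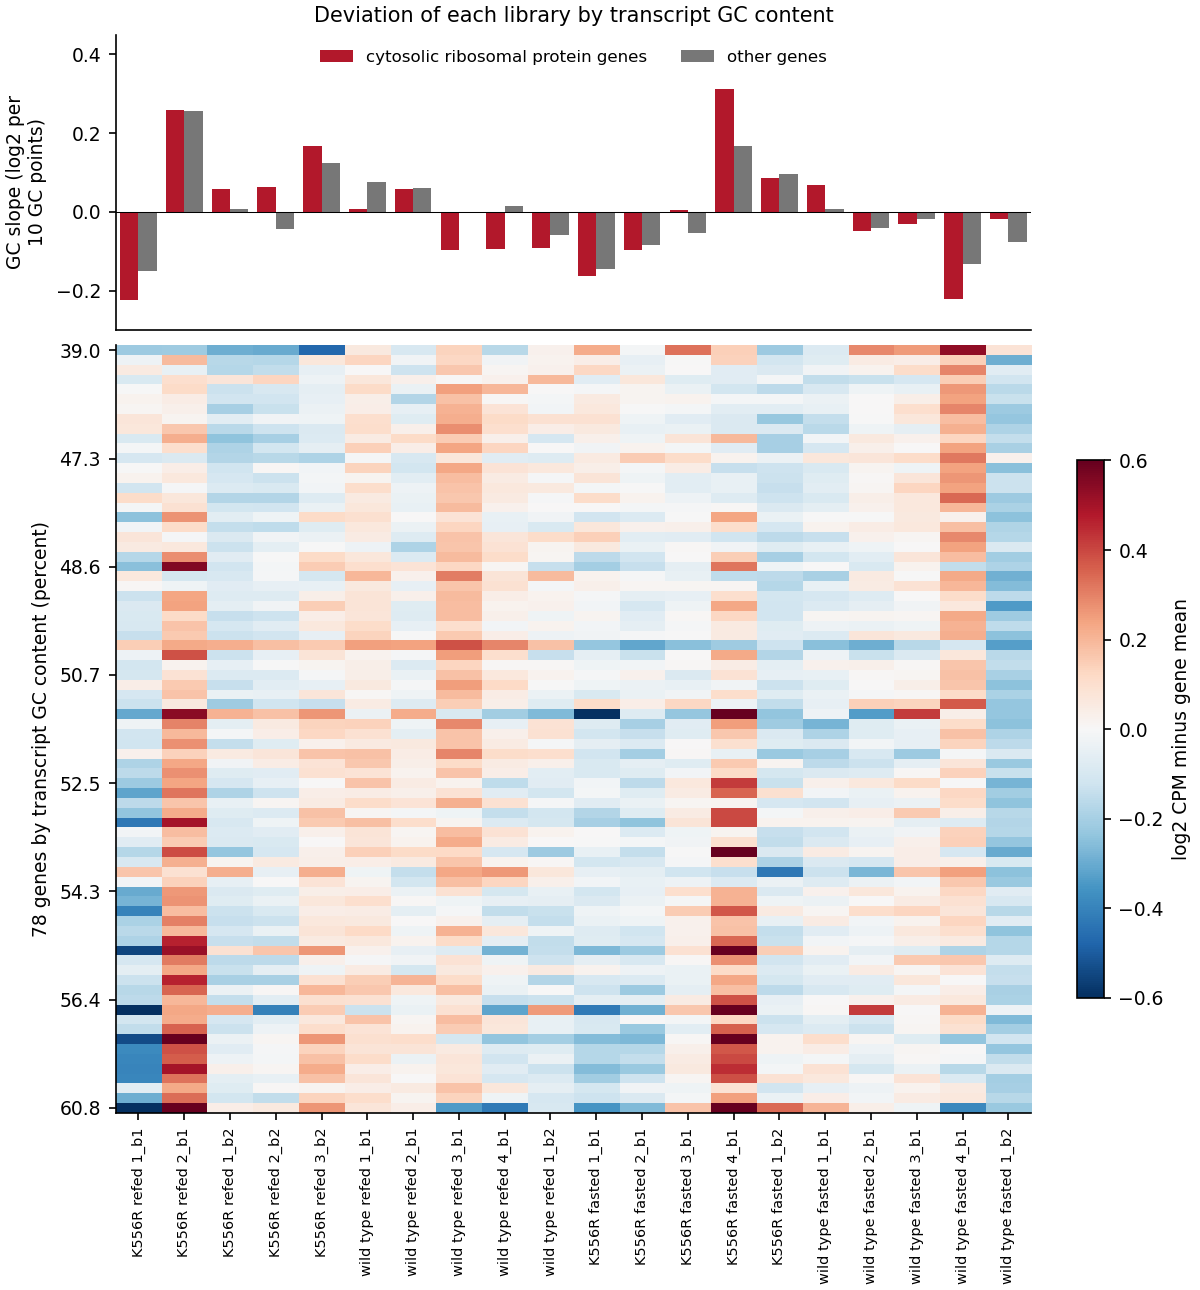
Top, slope of the deviation of log2 CPM from the gene mean on transcript GC content (log2 per 10 GC points) in each library, over the ribosomal protein genes (red) and over other genes (grey). Bottom, the deviation of each of the 78 genes, ordered by GC content, in the same libraries, with colours that stop at ±0.6; 2_b1 of K556R refed and 4_b1 of K556R fasted livers are high among GC-rich genes, and 1_b1 of K556R refed livers is low.

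With the slope of each library over other genes added as a term, a setting chosen after the data were seen, the median member changed by 0.03 on refeeding in each genotype. Then 7 members passed in K556R livers, 3 higher and 4 lower, and 8 in wild-type livers, 4 higher and 4 lower. Among them were Rpl36, lower in K556R (−0.39, adjusted p = 0.0169 by edgeR) and wild-type livers (−0.32, adjusted p = 0.034), and the stalk gene Rplp0, lower in wild-type livers (−0.16, adjusted p = 0.0409). No member passed between genotypes in that setting.

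Most members were slightly lower in batch 2, and they vary together in the same libraries. In batch 2 against batch 1, 75 of 78 members were below 0, with a median log2 change of −0.12 (−0.01 over all genes). Of all 13894 genes tested, 7392 were below 0. None of the 78 passed, where 0.101% of all genes did. An unadjusted edgeR p under 0.05 was found in 28 members, against 1799 of all 13894 genes. The lowest adjusted p was 0.0765, for Rpl37a, a small zinc-binding protein of the large subunit, at −0.23 (edgeR). DESeq2 called 4 members lower and limma 0. Rps3, near the mRNA entry of the small subunit, changed by −0.18 and Rpl32, a large-subunit protein, by −0.17, both among the genes that DESeq2 called. Rps27l, at 0.05, was among the 3 members above 0. Batch was a term in every test given above except where another setting is named.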

How the data were processed

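The data are raw read counts per gene in 20 mouse liver libraries, in a table deposited by the authors. The submitters' processing notes name the build mm10 and the tools edgeR, DESeq2, HTSeq, STAR, STAR-Fusion and TopHat. Which of them counted, with what strand setting and with what rule for reads that fit several places, is not given in the sources used here. Per the labels' protocols, poly-T beads selected the mRNA and random hexamers primed the cDNA.

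Counts were filtered with filterByExpr (minimum count 10, minimum total 15), scaled by TMM and tested with edgeR 4.0.16 in R 4.3.3 (glmQLFit, robust; group and batch as terms; all 20 libraries). Adjusted p-values are by Benjamini-Hochberg over 13894 genes. CPM use TMM-scaled totals, and log2 CPM a prior count of 2. Paralog ratios (prior count 0.5) were tested by exact permutation within batches. Alternatives were RLE and upper-quartile scaling, TMM without the members, DESeq2 1.42.0, limma 3.58.1 (voom with quality weights), no filter, a strict filter (CPM of 1 in 5 libraries), no batch term, batch 1 alone, a replicate block, omission of each library and of both K556R 1_b1 libraries, and, added after the data were seen, a GC slope term. The fit was tested on simulated counts. Transcript lengths and GC content are those of the shortest coding transcript with a CCDS entry in GENCODE M21 (all 82 members matched). Its 50-base and 100-base stretches were searched in the transcripts of other genes.

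Members and gene lists were chosen with earlier results of these data known. The text names up to 5 called members per direction of each comparison by p (or the 3 with the lowest p where none passed), the stalk genes, the paralogs, Rpsa, Rps6, Rpl5, Rpl11, Rps27a, the 3 highest and 3 lowest members per kb, up to 4 genes of each list by p, Prox1 and Pck1. Rpl4, Rpl7, Rps20 and Rps27 are named outside this rule and were chosen after their values were seen. The values of 1 member are not reported here. Albumin was added as a check of the tissue.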

Additional observations from a re-analysis of the deposited data

Results flagged for a closer look

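Within the 5 libraries of each group, 8 of 108 groups of values, from 26 named members and the share of counts, held a library far from the others by Dixon's test at its 95% critical value; chance flags about 1 in 20 groups. In K556R fasted 4_b1 this was so for Rpl13a at 82.0 CPM (48.7 to 53.7 in the other 4 libraries), Rpl34 at 3.84 CPM (1.19 to 1.90) and Rplp1 at 222.2 CPM (105.6 to 129.4). In K556R fasted 1_b2 it was Rpl31 at 1.53 CPM (1.89 to 2.00 in the others) and Rpl32 at 125.4 CPM (132.8 to 135.2). In K556R fasted 1_b1 it was Rps27a at 213.8 CPM (173.5 to 184.8 in the others). In wild type fasted 4_b1 it was Rpl22 at 103.6 CPM (84.9 to 89.99 in the others) and Rps27l at 125.5 CPM (102.2 to 105.5). All of these libraries were from fasted livers, and 6 of the 8 values lie above the rest of their group.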

How the results depend on the processing

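The members called on refeeding in K556R livers, 5 as reported, numbered 10 with upper-quartile scaling, 3 without a filter and 1 in batch 1 alone. In wild-type livers, also 5 as reported, they numbered 25 with upper-quartile scaling, 9 with DESeq2, 17 with limma, 10 with the strict filter, 3 without a batch term, 2 in batch 1 alone and 8 with the GC slope term. Leaving out 1 library gave 3 to 11 in K556R and 3 to 19 in wild-type livers. Between batches, 0 as reported, the count was 4 with DESeq2, 3 with the GC slope term and 1 without both K556R 1_b1 libraries, and 0 to 1 when 1 library was left out. Both genotype comparisons, their mean and the interaction gave 0 members in every setting and every omission run. None of the 10 refeeding changes that passed reversed its sign; members named with changes near 0 were not followed through these settings, and upper-quartile scaling moved wild-type changes up, that of Rpl22 to −0.08 and that of Rpl3 to 0.34. The causes were not tested.

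Leaving out the 10 most abundant other genes moved the share of counts to 1.53% in K556R refed, 1.56% in wild-type refed, 1.40% in K556R fasted and 1.39% in wild-type fasted livers, since the total is then smaller.

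Libraries with the same number and batch had a median correlation of deviations of −0.06 over 24 pairs (−0.37 to 0.65). Libraries with other numbers had one of −0.025 over 60 pairs (−0.518 to 0.413). The medians were close, so the numbers were not taken to pair samples, although the highest correlation was in a pair of the same number. With the number within batch as a replicate block, 3 members passed on refeeding in K556R and 2 in wild-type livers, and 0 in each other comparison.

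Members at 2 CPM, as Rpl31 and Rpl34, and at 1 CPM, as Rps2, rest on 28 to 161 counts a library.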
